A study of Rattus norvegicus with 9 samples.

Results

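Kidneys of rats given 50 mg/kg colistin methanesulfonate sodium daily (CMS50) were compared with kidneys of rats given the saline vehicle. All arrays labelled with either dose entered, 6 of the 9 arrays in the series, with 3 rats per group. Every probe set annotated to exactly 1 gene was read, 20826 of the 31042 that are not controls, and these covered 14217 genes. The rats were Sprague-Dawley, an outbred laboratory stock. They were bought at 8 weeks of age, acclimated for 1 week and injected intraperitoneally once a day for 7 days. Sex is not stated in the labels. Both groups shared the route, the saline and the schedule and differed in the dose, which was 0 or 50 mg/kg body weight. The labels record no lesion in vehicle kidneys. For CMS50 kidneys they record necrotic cells, degenerating or dilated tubules and eosinophilic casts. Another group of 3 rats had received 25 mg/kg (CMS25). Those 3 arrays helped to estimate the spread of each gene, and its values are given beside the results where they help. RNA came from the whole right kidney of each rat, so the values average over all its cell types.

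Colistin methanesulfonate is a prodrug of colistin, a polymyxin antibiotic that binds the outer membrane of Gram-negative bacteria. The kidney filters the drug and its proximal tubule takes polymyxins back up from the filtrate, through the endocytic receptors of its brush border and through peptide carriers. Proximal tubule cells carry most of the reabsorption of the nephron and depend on mitochondrial oxidation. After injury, surviving tubule cells are known to flatten, lose transport functions, re-enter the cell cycle and express surface and secreted proteins that the healthy tubule makes little of.

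Values are log2 intensities from RMA, as deposited. For each gene with several probe sets, the brightest on average over the 9 arrays was read. Genes were called at a Benjamini-Hochberg adjusted p under 0.05 from limma, adjusted over all 31042 probe sets, and changes are log2 differences, CMS50 minus vehicle, with the standard error of the fit. The 14 markers of kidney segments had vehicle means from 7.72 to 13.82 with a median of 11.24, so the tissue label was borne out. Arrays of one group correlated with r from 0.9898 to 0.9937. CMS50 replicate 3 lay nearer to the vehicle arrays, with r from 0.9854 to 0.9874 over all probe sets, against 0.9710 to 0.9754 for CMS50 replicates 1 and 2. A measure that grows as RNA degrades, the log2 value of a control transcript's 3′ probe set minus that of its 5′ probe set, also moved with the groups. For beta-actin it was 2.98 ± 0.155 (SD, n = 3) in vehicle and 3.58 ± 0.0854 in CMS50 kidneys. For GAPDH it was 0.542 ± 0.0286 and 0.816 ± 0.0622. In both controls all 3 CMS50 arrays lay above all vehicle arrays (two-sided exact permutation p = 0.1, the smallest that 3 against 3 arrays allow), and the part of this shift in the results below was not tested. Precision is limited by the number of arrays.

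The higher dose changed the expression of 2873 of 14217 genes, 20.2%. Of these, 1857 rose (13.1% of genes) and 1016 fell (7.15%), and 419 rises (2.95%) and 247 falls (1.74%) were at least 2-fold. On single probe sets with 1 gene, 3673 of 20826 were called (17.6%), 2137 higher (10.3%) and 1536 lower (7.38%), and over all probe sets that are not controls 8.61% were called higher and 6.46% lower. The typical change was modest. The median called rise was 0.64 and the median called fall 0.66 in size, 53 rises and 37 falls reached 2 log2 units, and 15 rises and 10 falls reached 3. The arrays of the groups did not overlap for 2856 of the called genes, against 42.5% of all genes. Of the called rises, 320 had a vehicle mean under 5, and of the called falls 119 had a CMS50 mean under 5, near the low end of the scale, where RMA compresses differences. The count of called genes was 1419 without CMS50 replicate 1, 1365 without CMS50 replicate 2 and 1857, 1524 and 1793 without vehicle replicates 1, 2 and 3. Without CMS50 replicate 3 it was 3286.

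Because list and family counts follow that total, each count above 0 below is accompanied by its value without an array wherever that differs by more than 1.5 times. Some counts of 0 became 1 or 2 when an array was left out. Every list and family count below is to be set against the 13.1% of all genes that rose and the 7.15% that fell. Of 276 called genes selected for naming, 182 kept the call whichever of the 9 arrays was left out. For a gene named below that did not, the arrays are given in its paragraph. For Ezh2, Mep1b and Folh1 this is not given. The lists were chosen with earlier results of these data known, so their direction is a description. As kidney RNA was measured in bulk, fewer cells of a type and less RNA per cell cannot be told apart.

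Below, the 20 largest rises and falls are those among called genes whose CMS50 and vehicle arrays did not overlap. Serpina3n at 3.24 and Poteml2 at -3.25, whose arrays overlapped, would otherwise have been among them and are described with the agreement of the arrays. The largest rises included genes for tubule injury proteins and protease inhibitors. Havcr1, which encodes the tubule injury marker KIM-1, read 3.96, 5.58 and 4.95 in vehicle replicates 1 to 3 and 11.66, 11.60 and 10.18 in CMS50 replicates 1 to 3. Its fitted change of 6.32 ± 0.44 (adjusted p = 0.000131) was the largest among all called genes. As its vehicle mean was 4.83, in the low range where RMA compresses differences, no exact fold is given. Ubd, the ubiquitin-like protein FAT10, read 4.32, 7.40 and 4.09 in vehicle and 11.67, 9.63 and 11.46 in CMS50 kidneys. All CMS50 arrays lay above all vehicle arrays in both genes, although vehicle replicate 2 had the highest vehicle value of each. Ubd differed by 5.65 ± 0.83 (adjusted p = 0.00297). Lcn2, the iron-carrier binding protein NGAL, rose by 4.62 ± 0.41, Clu, the extracellular chaperone clusterin, by 3.66 ± 0.42, and Spp1, the secreted phosphoprotein osteopontin, by 3.65 ± 0.55.

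The rise with the highest moderated t of any gene was not an established injury marker. Col24a1 encodes a fibrillar collagen chain. It read 3.36, 3.65 and 3.37 in vehicle and 7.21, 7.18 and 6.88 in CMS50 kidneys. The groups were 3.63 ± 0.12 apart (adjusted p = 1.11e-06), the smallest standard error among the 20 largest rises without overlap. A2m, the broad protease inhibitor alpha-2-macroglobulin, read 3.32, 3.27 and 3.25 in vehicle and 6.62, 7.16 and 6.08 in CMS50 kidneys. Its rise was 3.34 ± 0.24 (adjusted p = 0.000131). Both genes were near the floor of the scale in every vehicle kidney and clearly above it in every CMS50 kidney.

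Gpx2, a glutathione peroxidase, rose by 3.52 ± 0.22 and Akr1b8, an aldo-keto reductase, by 3.29 ± 0.23. Further protease inhibitors among these 20 rises were Timp1, which blocks matrix metalloproteases, at 3.07 ± 0.27 and Serpina10, an inhibitor of coagulation proteases, at 3.21 ± 0.37. Adamts1, a secreted metalloprotease, rose by 3.39 ± 0.27, and Cfi, the protease complement factor I, by 3.28 ± 0.55. Gpnmb, a glycoprotein of lysosomes and the cell surface, rose by 3.50 ± 0.26. Mrc1, the macrophage mannose receptor, rose by 2.74 ± 0.41 and Ptprz1, a receptor tyrosine phosphatase, by 2.83 ± 0.23. Atf3, a stress-induced transcription factor, rose by 2.63 ± 0.29, and Slc34a2, a sodium-phosphate cotransporter best known from lung and gut, by 2.62 ± 0.30. Tpbg, a membrane glycoprotein, rose by 2.73 ± 0.24 and Mab21l3 by 2.68 ± 0.39.

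**Figure D1:**
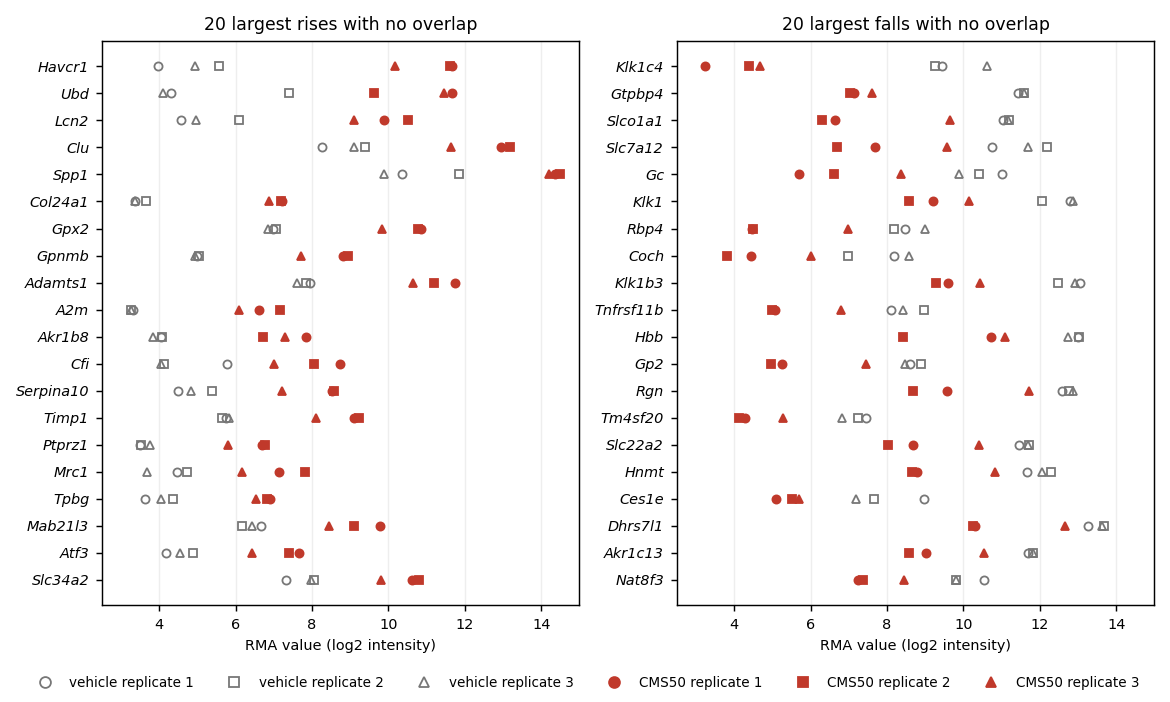
Deposited RMA value on each vehicle array (open grey symbols) and each CMS50 array (filled red symbols) for the 20 largest called rises and the 20 largest called falls among genes whose groups did not overlap, with the shape giving the replicate number and the horizontal axis in log2 intensity. The absence of overlap in every row comes from that choice. CMS50 replicate 3 (triangles) is the red symbol nearest to vehicle in every fall shown and in every rise shown except Ubd and Akr1b8.

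The largest falls included genes for kallikreins, transporters and plasma carrier proteins. Klk1c4, a tissue kallikrein, read 9.45, 9.27 and 10.63 in vehicle and 3.23, 4.38 and 4.67 in CMS50 kidneys, a fall of 5.69 ± 0.40 on the log2 scale (adjusted p = 0.000131). Gtpbp4, a GTP-binding protein of ribosome assembly, read 11.42, 11.59 and 11.60 in vehicle and 7.13, 7.03 and 7.61 in CMS50 kidneys. It fell by 4.28 ± 0.25 (adjusted p = 0.00012), the lowest moderated t of any gene, and CMS50 values lay far below all vehicle values on every array in both genes. Klk1 and Klk1b3 fell by 3.27 ± 0.39 and 3.04 ± 0.37. Kallikrein genes resemble each other closely, so which copy a probe set reads is uncertain.

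Slco1a1, an organic anion transporter, read 11.03, 11.20 and 11.18 in vehicle and 6.63, 6.29 and 9.66 in CMS50 kidneys. Slc7a12, an amino acid transporter, read 10.75, 12.19 and 11.70 in vehicle and 7.68, 6.69 and 9.57 in CMS50 kidneys. Both were lower on every CMS50 array, and in both CMS50 replicate 3 was the CMS50 array nearest to vehicle. The falls were 3.60 ± 0.70 and 3.57 ± 0.70 (adjusted p = 0.00855 and 0.0091). Gc, the vitamin D binding protein, fell by 3.54 ± 0.54 and Rbp4, the plasma retinol carrier, by 3.23 ± 0.65. Slc22a2, the organic cation transporter OCT2, fell by 2.59 ± 0.49 and Hnmt, which methylates histamine, by 2.58 ± 0.47.

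Other genes among the 20 largest falls were Coch at -3.17 ± 0.59, Tnfrsf11b, the decoy receptor osteoprotegerin, at -2.88 ± 0.43, and Tm4sf20, a tetraspanin-like membrane protein, at -2.61 ± 0.33. The carboxylesterase Ces1e changed by -2.51 ± 0.44, the aldo-keto reductase Akr1c13 by -2.39 ± 0.41 and the acetyltransferase Nat8f3 by -2.36 ± 0.32. Hbb, a beta globin, changed by -2.84 ± 0.56. Rgn, the calcium-binding protein regucalcin, changed by -2.75 ± 0.58, the dehydrogenase Dhrs7l1 by -2.45 ± 0.53, and Gp2, a membrane glycoprotein related to uromodulin, by -2.76 ± 0.80. These last genes were less secure. Rgn lost the call without CMS50 replicate 1 (adjusted p = 0.054), and Dhrs7l1 without CMS50 replicates 1 or 2 (adjusted p = 0.0577 and 0.0539). Gp2 lost it without CMS25 replicate 3 (0.0567), CMS50 replicate 1 (0.144) or 2 (0.149), or vehicle replicate 1 (0.0936), 2 (0.12) or 3 (0.0916).

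Some smaller changes were among the most repeatable. Clcf1, a cytokine of the interleukin-6 family, rose by 1.83 ± 0.13 and Casp4, an inflammatory caspase, by 1.22 ± 0.10. Gstt2, a glutathione transferase, read 9.34, 9.21 and 9.52 in vehicle and 8.24, 8.21 and 8.20 in CMS50 kidneys. Mrap, an accessory protein of melanocortin receptors, read 8.36, 8.34 and 8.33 in vehicle and 6.05, 6.63 and 6.48 in CMS50 kidneys. In neither gene did CMS50 replicate 3 lie nearer to vehicle than both other CMS50 arrays. Their falls were 1.14 ± 0.10 and 1.95 ± 0.17 (adjusted p = 0.000369 and 0.000413). Smpx fell by 1.82 ± 0.15, Myo5a, an actin-based motor, by 1.21 ± 0.12, Mpdz, a tight-junction scaffold, by 1.12 ± 0.10, Azgp1, a zinc-binding plasma glycoprotein, by 1.66 ± 0.19, Mpped1 by 1.85 ± 0.21 and Dpys, dihydropyrimidinase, by 1.23 ± 0.14.

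The 3 CMS50 kidneys moved in the same direction but not equally far. CMS50 replicate 3 was the least changed array in 1468 of 1857 called rises (79.1%) and in 816 of 1016 called falls (80.3%). Median changes of called rises were 0.693, 0.762 and 0.479 in replicates 1 to 3, and those of called falls were -0.763, -0.736 and -0.452. To read each array on genes it did not choose, genes were taken that the other CMS50 arrays both put at least 1 log2 unit above or below every vehicle array. Genes chosen without replicate 3 numbered 286 above and 189 below vehicle, and replicate 3 showed a median of 0.619 of their mean change above and 0.481 below. It reached less than 0.5 of the change in 48 of the former and 100 of the latter. For genes chosen without replicate 1 the medians were 1.09 (119 genes above) and 1.17 (43 below), and without replicate 2 they were 1.24 (115 above) and 1.27 (42 below). For replicates 1 and 2 the other arrays include replicate 3, so shares above 1 partly restate its smaller change. Choosing genes for large changes on the other arrays can also lower the share of the array left out.

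Among called genes changed at least 2-fold, replicate 3 showed a median share of 0.638 of the change of the other arrays in the 419 rises and 0.539 in the 247 falls. The share varied by gene. It was 0.9 or more in 29 rises, which included Ubd, Spp1, Col24a1 and Akr1b8, and in 24 falls, which included Mrap. It was under 0.5 in 67 rises and 101 falls, among them Slco1a1, Slc7a12, Gc, Rbp4, Tnfrsf11b, Slc22a2 and Hnmt. Genes that varied widely within the CMS50 group did not all follow replicate 3. Poteml2 read 3.57, 4.83 and 7.03 in CMS50 kidneys and 8.92, 9.26 and 7.00 in vehicle, so replicate 3 was within the vehicle range. Its change of -3.25 ± 0.79 (adjusted p = 0.0213) lost the call without CMS50 replicate 1 (0.0762) or 2 (0.0746) or vehicle replicate 1 (0.0688) or 2 (0.0816). In Serpina3n replicate 1 was the least changed array. Serpina3n, an acute-phase protease inhibitor, read 6.06, 10.50 and 8.17 in CMS50 kidneys and 4.99, 6.48 and 3.54 in vehicle, so its groups overlapped. Its change of 3.24 ± 0.97 (adjusted p = 0.0494) lost the call without CMS25 replicate 1 (0.0643), 2 (0.0646) or 3 (0.0647), CMS50 replicate 2 (0.143, at a change of 2.11) or 3 (0.0829), or vehicle replicate 1 (0.108) or 3 (0.16).

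**Figure D2:**
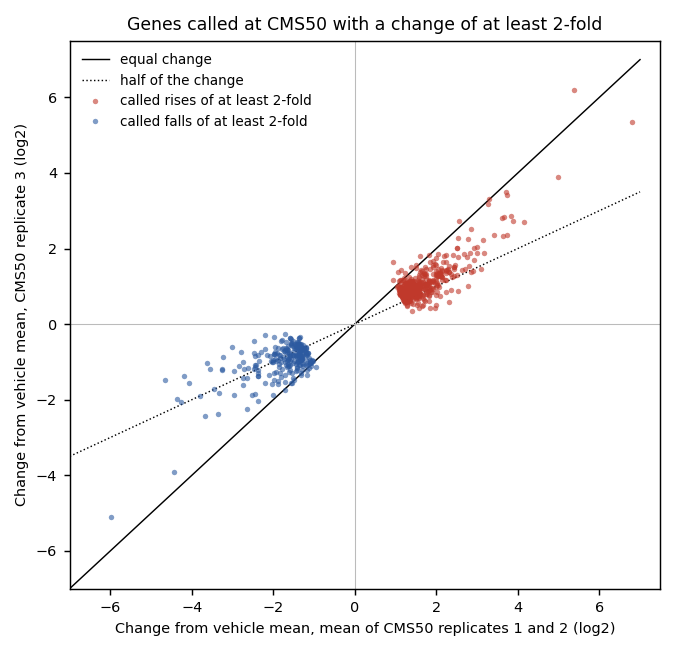
Change from the vehicle mean in CMS50 replicate 3 (vertical, log2) against the mean change of CMS50 replicates 1 and 2 (horizontal, log2) for the 419 rises (red) and 247 falls (blue) called with a change of at least 2-fold, with a solid line of equal change and a dotted line of a share of 0.5. Most points lie between the lines, and 101 falls lie nearer to 0 than the dotted line.

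Function lists showed which parts of cell physiology the called genes belonged to. Of the 100 largest rises 25 belonged to one of the function lists and 73 to no list, and of the 100 largest falls 13 and 83, so the lists cover a minority of the largest changes. Over all genes the median change was 0.03. The highest medians were those of the tubule injury proteins, at 1.47 with 16 of 28 risen and 2 fallen, and of mitosis, at 1.32 with 23 of 26 risen. The lowest was that of branched-chain amino acid and propionate breakdown, at -0.71 with 15 of 21 fallen. In these lists replicate 3 had the smallest median shift of the 3 arrays, 0.850, 0.951 and -0.402, against 1.715, 1.226 and -0.802 in replicate 1 and 1.673, 1.706 and -0.720 in replicate 2. Its falls, picked out after their values were seen, were Tff3, a trefoil peptide, which fell by 2.27 ± 0.42, and Prom1, a membrane protein, which fell by 1.03 ± 0.27. Without any of vehicle replicates 1 to 3 or CMS50 replicates 1 or 2, 1 of that list's falls was called.

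**Figure D3:**
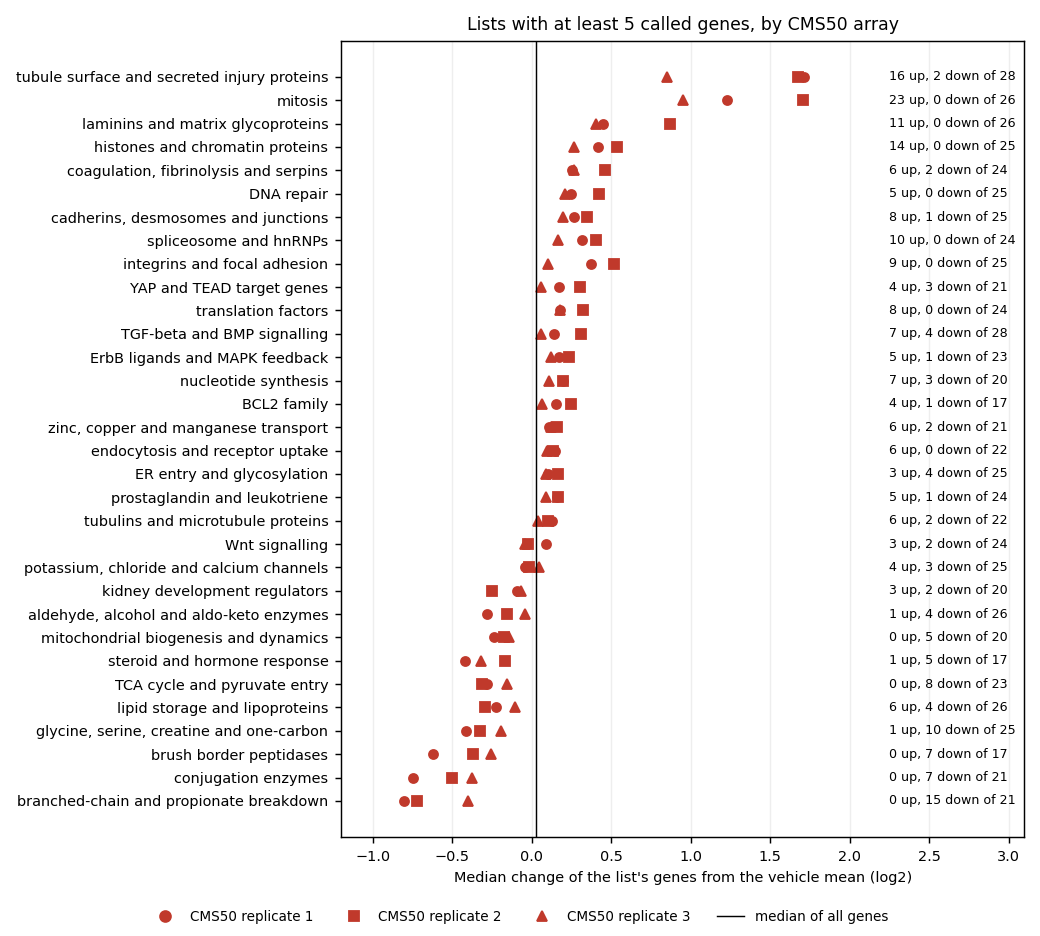
Median change from the vehicle mean of the genes of the function lists with at least 5 called genes that are reported here (log2), shown separately for the 3 CMS50 arrays by symbol, with the median of all genes as a vertical line and the called genes written at the right. Replicate 3 (triangles) is closest to the line in most lists at either end, and mitosis and branched-chain breakdown lie at or next to the ends.

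Genes of cell division rose as a block. In the mitosis list 23 of 26 genes rose (88.5%, against 13.1% of all genes) and 0 fell. Ccna2, the cyclin of S phase and G2, read 3.72, 3.85 and 3.47 in vehicle and 5.76, 6.70 and 5.95 in CMS50 kidneys. All CMS50 arrays were higher, with replicate 2 highest, and the rise was 2.45 ± 0.23 (adjusted p = 0.000507). Bub1, a kinase of the spindle checkpoint, rose by 1.84 ± 0.25, Prc1, which bundles microtubules in the central spindle, by 1.81 ± 0.17, and Ect2, the exchange factor that starts cytokinesis, by 1.79 ± 0.21. Ube2c, the ubiquitin-conjugating partner of the anaphase-promoting complex, rose by 1.49 ± 0.19. Of the 3 that were not called, Kif11, a spindle motor, had a change of 0.41 ± 0.15 (adjusted p = 0.0892). At CMS25 these 5 named genes had changes from -0.64 (Ect2) to 0.02 (Ube2c), none called.

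Promoters of cell cycle genes are known for 2 short elements, CCAAT boxes and the TTTGAA of the CHR element, which are shown here because the list moved together. RefSeq promoter windows on GRCr8, from 250 bases before to 50 after the gene start, were found for 11700 of 14217 genes. Of 22 mitosis genes with a window, 18 held CCAAT on either strand (81.8%, against 37.3% of all windows), 15 held TTTGAA (68.2%, against 12.3%) and 13 held both (against 5.03%). Among all called rises the shares for CCAAT and TTTGAA were 37.9% and 13.9%, and among called falls 41.8% and 12.9%. TGANTCA, the AP-1 motif, was in 4.55% of mitosis windows and in 5.43% of all windows. The 250 bases before the start of 3 of the risen genes follow, 5′ to 3′ on the gene's strand, with CCAAT and TTTGAA on either strand in capitals. They are Ect2 at chr2:111966627-111966876 (minus strand), Prc1 at chr1:143659231-143659480 (plus strand) and Bub1 at chr3:135504922-135505171 (minus strand).
Ect2: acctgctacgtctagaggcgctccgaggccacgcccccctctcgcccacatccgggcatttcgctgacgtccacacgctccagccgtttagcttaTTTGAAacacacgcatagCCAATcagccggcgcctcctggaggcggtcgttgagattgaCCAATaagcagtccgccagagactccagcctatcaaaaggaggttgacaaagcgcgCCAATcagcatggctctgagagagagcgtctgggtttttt
Prc1: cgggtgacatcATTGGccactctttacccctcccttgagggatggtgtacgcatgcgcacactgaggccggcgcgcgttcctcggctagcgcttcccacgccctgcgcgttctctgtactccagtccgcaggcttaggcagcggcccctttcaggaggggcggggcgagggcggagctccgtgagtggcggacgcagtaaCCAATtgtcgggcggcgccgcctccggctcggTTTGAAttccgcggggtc
Bub1: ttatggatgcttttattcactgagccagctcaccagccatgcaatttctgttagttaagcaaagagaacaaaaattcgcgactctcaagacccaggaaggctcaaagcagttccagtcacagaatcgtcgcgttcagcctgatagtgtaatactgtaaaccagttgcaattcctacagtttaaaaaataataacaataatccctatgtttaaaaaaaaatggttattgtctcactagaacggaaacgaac
In the 250 bases shown, Ect2 held 3 CCAAT and 1 TTTGAA, Prc1 2 and 1, and Bub1 0 and 0. A gene of the list thus rose with neither run of letters in the 250 bases before its start. The 50 bases after the start are not shown. A match of letters does not show that a factor binds there.

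DNA replication and chromatin genes followed. Of 10 genes whose symbols begin with Mcm, the 6 that form the replicative helicase rose and no other did. Mcm6 rose by 1.78 ± 0.23, Mcm4 by 1.23 ± 0.18, Mcm2 by 1.13 ± 0.16 and Mcm7 by 0.81 ± 0.13. Of 8 Cdca genes, named for their link to cell division, 4 rose, among them Cdca7 by 1.32 ± 0.22 and Cdca3 by 1.30 ± 0.16. In the histone and chromatin list 14 of 25 rose and 0 fell (median 0.42). Hmgn2, a nucleosome-binding protein, rose by 0.83 ± 0.12 and Hmgb3, a DNA-bending protein, by 0.69 ± 0.14. Uhrf1, which guides maintenance of DNA methylation, read 4.40, 5.72 and 4.10 in CMS50 and 3.28, 3.44 and 3.21 in vehicle kidneys, so replicate 2 set much of its rise of 1.43 ± 0.33. Without CMS50 replicate 2 the rise was 0.94, and without vehicle replicate 3 it was not called (adjusted p = 0.0562). Leaving out vehicle replicate 1 or 3 or CMS50 replicate 2 left 9, 7 or 8 called chromatin genes.

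In DNA repair 5 of 25 rose and 0 fell (median 0.32), led by Lig1, the ligase of replication, at 0.99 ± 0.13. The count was 2 without CMS50 replicate 2, 8 without CMS25 replicate 3 and 9 without CMS50 replicate 3. In nucleotide synthesis 7 of 20 rose and 3 fell. Aprt, which salvages adenine, rose by 0.96 ± 0.14, Tk1, thymidine kinase, by 0.71 ± 0.15 and Rrm1, of ribonucleotide reductase, by 0.65 ± 0.12, whereas Prps2, which makes the ribose donor of nucleotides, fell by 1.14 ± 0.17. The rises numbered 4, 3 and 4 without vehicle replicates 1 to 3 and 3 without CMS50 replicate 1 or 2, and 1 fall was called without CMS50 replicate 1 or 2. Of 11 Parp genes, whose enzymes transfer ADP-ribose, 7 rose (4 without CMS50 replicate 2), with Parp14 at 1.12 ± 0.18, Parp10 at 1.07 ± 0.15 and Parp9 at 1.05 ± 0.20. Of 8 Brd genes, most of them bromodomain proteins, 4 rose, with Brd9 at 0.50 ± 0.10, and the count was 2 without vehicle replicate 2, CMS50 replicate 1 or CMS50 replicate 2.

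Many ribosomal protein genes rose by small amounts. Of 33 genes with symbols beginning with Rpl, mostly proteins of the large ribosomal subunit, 26 rose (78.8%) and 0 fell, the highest share of rises among 275 symbol families with at least 8 genes. Their median change was 0.46. Rpl3 read 12.23, 12.24 and 12.32 in vehicle and 13.27, 13.35 and 12.88 in CMS50 kidneys. The groups were far apart relative to their spread, and the rise was 0.90 ± 0.13 (adjusted p = 0.00273). Rpl12 rose by 0.83 ± 0.15, Rpl22 by 0.77 ± 0.12 and Rpl27a by 0.73 ± 0.12. Of 22 Rps genes 12 rose and 0 fell (median 0.40), with Rps28 at 0.85 ± 0.13, Rps24 at 0.80 ± 0.13, Rps16 at 0.74 ± 0.12 and Rps15 at 0.70 ± 0.11. The 22 also hold kinase genes, whose symbols begin with Rps6k, so this share and median are not those of ribosomal proteins alone. Of the kinase genes only Rps6ka4, 1 of the 12, was called. The Rpl count was 16 and 17 without vehicle replicates 1 and 2 and 12 and 11 without CMS50 replicates 1 and 2. The Rps count was 7 without vehicle replicate 2 or 3 or CMS50 replicate 1 or 2. Medians stayed above 0 under cyclic loess scaling (0.54 for Rpl) and median centring (0.43). Ribosomal protein genes have many processed copies in the genome, so which copy a probe set reads is uncertain.

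The machinery around the ribosome showed fewer calls. Among translation factors 8 of 24 rose and 0 fell (median 0.20), with the elongation factor genes Eef1g at 0.74 ± 0.13, Eef2 at 0.70 ± 0.11 and Eef1d at 0.60 ± 0.11. Eef1a1, an elongation factor gene that was not called, had a change of 0.30 ± 0.09 (adjusted p = 0.0513). In ribosome assembly 3 of 25 rose and 1 fell (median 0.28). Ncl, the nucleolar protein nucleolin, rose by 0.59 ± 0.10, and the fall was Gtpbp4. Spliceosome and hnRNP genes rose in 10 of 24 and fell in 0 (median 0.29), with Ptbp1, a splicing repressor, at 0.70 ± 0.10, Sf3a1 at 0.68 ± 0.12 and Snrpe at 0.63 ± 0.10. Aminoacyl-tRNA synthetases rose in 3 of 19. The shares of rises in ribosome assembly and the synthetases, 12% and 15.8%, were near the 13.1% of all genes, so these counts are no result about either list. The translation factor count was 5 without vehicle replicate 1 and 3 without vehicle replicate 2 or 3 or CMS50 replicate 1 or 2. The spliceosome count was 5, 6 and 6 without vehicle replicates 1 to 3 and 5 without CMS50 replicate 1 or 2. The assembly count was 1 without vehicle replicate 2 or CMS50 replicate 1 or 2. The synthetase count was 0 without vehicle replicate 1 or 2 or CMS50 replicate 1 or 2, and 1 without vehicle replicate 3.

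**Figure D4:**
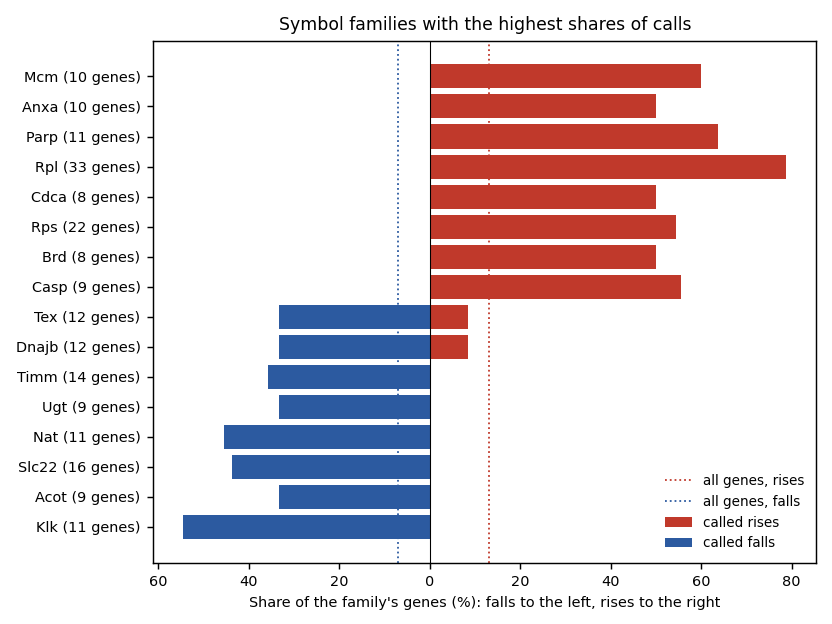
Share of genes called higher (red, to the right) and lower (blue, to the left) in the 8 symbol families with the highest share of rises and the 8 with the highest share of falls, in percent of the family's measured genes, with dotted lines at the shares over all genes (13.1% and 7.15%). The Rpl bar is longest at 78.8%, and the longest bar to the left is that of the kallikreins.

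**Figure D5:**
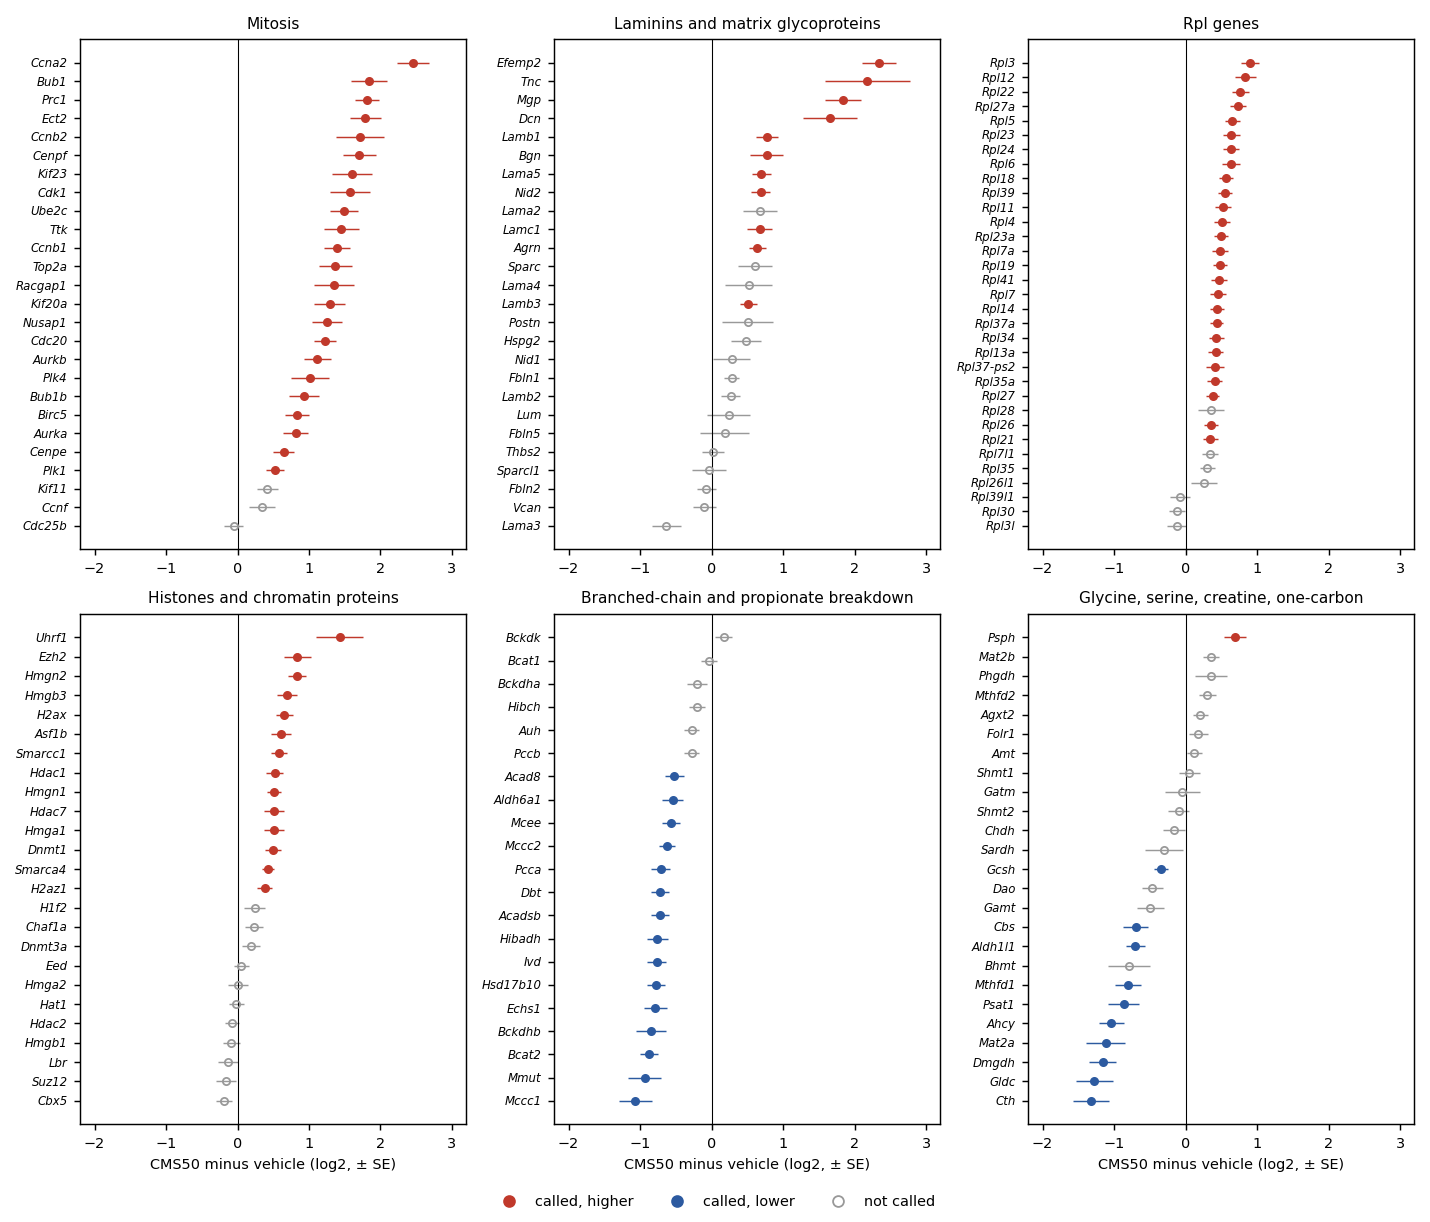
Change of every measured gene (log2, CMS50 minus vehicle, with the standard error of the fit as bars) in 5 function lists and the Rpl family, with called rises in red, called falls in blue and genes that were not called as open grey circles. The Rpl genes sit close together around 0.46, the mitosis genes spread up to 2.45, and in the branched-chain list every filled symbol is below 0.

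Among tubulins and microtubule proteins 6 of 22 rose and 2 fell (27.3% and 9.09%, against 13.1% and 7.15% of all genes). The share of falls was near that of all genes, so it is no result about the list. Tubb6, Tubb5, Map1b and Stmn1 rose by 1.57 ± 0.21, 1.53 ± 0.25, 1.34 ± 0.23 and 1.10 ± 0.15. Without vehicle replicate 2 or CMS50 replicate 1, 1 of these falls was called. Of 10 annexins, which bind membranes with calcium, 5 rose (3 without CMS50 replicate 1). Anxa2 rose by 1.85 ± 0.23, Anxa5 by 1.84 ± 0.27 and Anxa7 by 1.28 ± 0.17.

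In adhesion and matrix lists most calls were rises, and most members were not called. Of 26 laminin and matrix glycoprotein genes 11 rose and 0 fell (median 0.52). Efemp2, an elastic fibre protein, rose by 2.34 ± 0.24 and Mgp, the matrix Gla protein that limits calcification, by 1.83 ± 0.25. Tnc, tenascin C of healing tissue, was higher by 2.18 ± 0.59. In integrins and focal adhesion 9 of 25 rose and 0 fell, with Cd44, a hyaluronan receptor, at 1.67 ± 0.22, Flna, an actin cross-linker, at 1.44 ± 0.24 and Itgb4, the integrin of hemidesmosomes, at 1.07 ± 0.19. In cadherins, desmosomes and junctions 8 of 25 rose and 1 fell. The desmosomal cadherins Dsc2 and Dsg2 rose by 1.97 ± 0.28 and 1.26 ± 0.24, Nectin2 by 1.17 ± 0.20 and Cdh6, a cadherin of the proximal tubule, by 1.02 ± 0.17. Among coagulation genes and serpins 6 of 24 rose and 2 fell (25% and 8.33%, against 13.1% and 7.15% of all genes). The share of falls was near that of all genes. A2m and Serpinf1, at 1.06 ± 0.18, were among the rises.

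These counts depended on single arrays. The matrix count was 7, 6 and 7 without vehicle replicates 1 to 3 and 7 and 6 without CMS50 replicates 1 and 2. The integrin count was 5 without vehicle replicate 2 or CMS50 replicate 1 or 2. The junction count was 4, 4 and 5 without vehicle replicates 1 to 3 and 5 and 4 without CMS50 replicates 1 and 2, and its fall was not called without vehicle replicate 2 or 3 or CMS50 replicate 2. The coagulation rises numbered 3 without vehicle replicate 2 and 2 without vehicle replicate 3 or CMS50 replicate 2. Its falls numbered 1 without vehicle replicate 1 or 3 and 0 without vehicle replicate 2 or CMS50 replicate 1 or 2. Tnc lost its call without any of vehicle replicates 1 to 3 (adjusted p = 0.0904, 0.0717 and 0.0954) or CMS50 replicates 1 or 2 (0.0874 and 0.1).

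Markers of cells other than tubule epithelium moved with the groups, and their part in the results above was not tested. Of 18 macrophage markers 17 rose and 0 fell (median 1.27), and the mean level over the list was 6.05 to 6.22 on vehicle arrays and 7.09 to 7.82 on CMS50 arrays. C1qa, a chain of complement C1q, rose by 1.63 ± 0.28 and Lyz2, lysozyme, by 1.60 ± 0.20. Itgam, the integrin CD11b, was under 5 on every array with a change of 0.34 ± 0.13 (adjusted p = 0.124), as Cd163 was under 5 on every array too. Of 15 fibroblast and smooth muscle markers 6 rose and 0 fell, with list means of 6.27 to 6.42 and 6.79 to 7.49. That count was 1, 0 and 2 without vehicle replicates 1 to 3 and 1 and 0 without CMS50 replicates 1 and 2. Of 19 lymphocyte markers 4 rose, the T cell receptor genes Cd3d, Cd3e, Cd3g and Cd247, with Cd3d at 0.87 ± 0.10 and Cd3g at 0.68 ± 0.11. The list mean was 4.28 to 4.43 and 4.46 to 4.55, and 12 of the 19, Cd3d and Cd247 among them, were under 5 on every array. The count was 2 without vehicle replicate 2 or 3, Cd3e was also lost without CMS50 replicate 1 (adjusted p = 0.0769) and Cd247 without CMS50 replicate 2 (0.108) or vehicle replicate 1 (0.0697). Of 9 neutrophil markers 8 were under 5 on every array. Among those 8 was Il1r2, the only neutrophil marker called, which rose by 0.70 ± 0.12 (2 rose without CMS50 replicate 3).

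Among red cell and endothelial markers the calls were falls. Of 8 red cell genes 4 fell and 0 rose, with list means of 6.97 to 7.17 on vehicle arrays and 5.46 to 6.37 on CMS50 arrays. Hba-a3, an alpha globin, read 10.57, 10.71 and 10.49 in vehicle and 8.36, 7.35 and 9.16 in CMS50 kidneys and fell by 2.30 ± 0.44. Slc4a1, the anion exchanger of red cells and of intercalated cells of the collecting duct, fell by 1.67 ± 0.27. Globin genes have near-identical copies, so the copy read is uncertain. Of 13 endothelial markers 3 fell and 0 rose, with list means of 7.29 to 7.43 and 7.00 to 7.10. Cldn5, the tight-junction claudin of endothelium, fell by 0.84 ± 0.13. The endothelial count was 1 without vehicle replicate 2 or CMS50 replicate 1 or 2 and 6 without CMS25 replicate 3. Mast cell and urothelial markers had 0 calls each by limma among 9 genes, with 2 and 1 genes at an unadjusted p under 0.05, and 1 mast cell marker fell without vehicle replicate 3. Adipocyte markers fell in 2 of 10 (20%, against 7.15% of all genes). Adrenal cortex markers rose in 1 and fell in 1 of 10 (10% each, near the 13.1% and 7.15% of all genes). The adipocyte count was 0 without vehicle replicate 2 or 3 or CMS50 replicate 1 or 2, and 1 without CMS50 replicate 3. For adrenal genes 2 falls were called without CMS50 replicate 3.

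Among the falls, mitochondrial breakdown of branched-chain amino acids and propionate stood out. Of 21 genes 15 fell (71.4%, against 7.15% of all genes) and 0 rose. Bcat2, the mitochondrial transaminase of the first step, read 8.81, 8.77 and 8.45 in vehicle and 7.83, 7.72 and 7.86 in CMS50 kidneys. All CMS50 arrays were below all vehicle arrays, and the fall was 0.87 ± 0.12 (adjusted p = 0.00254). Mccc1, of the leucine pathway, fell by 1.07 ± 0.23, Mmut, the mutase that feeds propionate into the citric acid cycle, by 0.94 ± 0.23, and Bckdhb, of the branched-chain keto acid dehydrogenase, by 0.85 ± 0.21. Pccb, of propionyl-CoA carboxylase, had a change of -0.28 ± 0.10 (adjusted p = 0.0857). The count was 9 without CMS50 replicate 2. Mccc1 lost its call without CMS50 replicate 1 (adjusted p = 0.0586), CMS50 replicate 2 (0.0571) or vehicle replicate 2 (0.0542). Mmut lost it without CMS50 replicate 2 (0.0652) or vehicle replicate 2 (0.0757) or 3 (0.0597). Bckdhb lost it without CMS50 replicate 2 (0.0588) or vehicle replicate 2 (0.0788) or 3 (0.0784).

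Glycine, serine and one-carbon metabolism fell in 10 of 25 genes and rose in 1 (median -0.34). Cth, the last enzyme of cysteine synthesis from methionine, read 12.32, 12.43 and 12.65 in vehicle and 10.86, 10.77 and 11.80 in CMS50 kidneys, lower on every array with replicate 3 nearest to vehicle. It fell by 1.33 ± 0.25 (adjusted p = 0.00827). Gldc, of the glycine cleavage system, fell by 1.28 ± 0.26 and Dmgdh, which oxidises dimethylglycine, by 1.16 ± 0.19. In the citric acid cycle and pyruvate entry 8 of 23 fell and 0 rose (median -0.22), with Pdhx, a pyruvate dehydrogenase subunit, at -0.64 ± 0.13. Of 20 genes of mitochondrial biogenesis and dynamics 5 fell and 0 rose. Tfb2m, a mitochondrial transcription factor, changed by -0.69 ± 0.09, Pink1, a kinase of mitophagy, by -0.71 ± 0.13 and Bnip3, a mitophagy receptor, by -0.55 ± 0.10. Of 14 Timm genes, translocases of the inner mitochondrial membrane, 5 fell and 0 rose, with Timm8a1 at -0.67 ± 0.13.

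Of these, the one-carbon falls numbered 6 without vehicle replicate 2 or 3 or CMS50 replicate 1 and 5 without CMS50 replicate 2. Its single rise was lost without vehicle replicate 2 or 3 or CMS50 replicate 2, and it was joined by another without CMS25 replicate 3 or CMS50 replicate 3, where 2 were called. Citric acid cycle falls numbered 3, 2 and 3 without vehicle replicates 1 to 3 and 1 and 2 without CMS50 replicates 1 and 2. Biogenesis falls numbered 3 without vehicle replicate 3 or CMS50 replicate 1 or 2. Timm falls numbered 2, 1 and 3 without vehicle replicates 1 to 3 and 1 without CMS50 replicate 1 or 2.

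The Slc22 transporters, the peptidases and the conjugation enzymes held falls and no rises, although most of their members were not called. Of 16 Slc22 genes, the organic anion and cation transporters, 7 fell and 0 rose. Besides Slc22a2, Slc22a25 fell by 1.69 ± 0.25, Slc22a12, the urate transporter URAT1, by 1.33 ± 0.21 and Slc22a6, the organic anion transporter OAT1, by 1.25 ± 0.25. Of 17 genes in a list of brush border and other peptidases 7 fell and 0 rose (median -0.38). Cndp1, a dipeptidase, was at -2.04 ± 0.35 and Lap3, an aminopeptidase, at -1.07 ± 0.19, and neither is a membrane enzyme of the brush border. Membrane enzymes of the list were among the falls too, with Mep1b at -1.29 ± 0.34 and Folh1 at -1.165 ± 0.27. Of 21 conjugation enzymes 7 fell and 0 rose (median -0.45). Ugt2b35, a glucuronosyltransferase, read 12.78, 12.84 and 12.52 in vehicle and 8.86, 10.53 and 12.09 in CMS50 kidneys, so its CMS50 values were spread over more than 3 log2 units and replicate 3 was close to vehicle. Its change was -2.22 ± 0.60 (adjusted p = 0.0325) and -1.40 without CMS50 replicate 1, still called. The call was lost without CMS50 replicate 2 (0.0881) or vehicle replicate 1 (0.0815), 2 (0.0949) or 3 (0.0717).

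The Slc22 count was 4 without vehicle replicate 2 or CMS50 replicate 1 or 2. The peptidase count was 4 without any of the vehicle arrays and 3 without CMS50 replicate 1 or 2. The conjugation count was 3, 1 and 3 without vehicle replicates 1 to 3 and 1 and 0 without CMS50 replicates 1 and 2. Of 9 Ugt genes 3 fell, and 1 without vehicle replicate 2 or CMS50 replicate 1 and 0 without CMS50 replicate 2. Apart from Ugt2b35, those that fell had means under 5 in both groups. Of 9 Acot genes, acyl-CoA thioesterases, 3 fell, 1 without vehicle replicate 2 and 0 without vehicle replicate 1 or 3 or CMS50 replicate 1 or 2. Of 12 Dnajb genes, for heat shock co-chaperones, 4 fell, with Dnajb6 at -0.68 ± 0.11, and 1 rose, Dnajb3 at 0.75 ± 0.12. Its falls numbered 2 without vehicle replicate 1 and 1 without vehicle replicate 2 or 3, CMS25 replicate 1 or CMS50 replicate 1 or 2. Of 12 Tex genes, named for expression in testis, 4 fell, with Tex14 at -1.25 ± 0.21, and 1 rose, a rise not called under either other scaling or without vehicle replicate 1 or 2, CMS25 replicate 3 or any CMS50 array. The falls numbered 2 without vehicle replicate 1 or CMS50 replicate 1 or 2.

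The Klk and Nat families had the highest shares of falls. Of 11 Klk genes 6 fell (54.5%) and 0 rose, which besides the kallikreins already given included Klk1c9 at -2.31 ± 0.28. The other Klk genes that fell had means under 5 in both groups, near the low end of the scale. So had all Klk genes that were not called. Of 11 Nat genes 5 fell (45.5%) and 0 rose, all of them Nat8 relatives, acetyltransferases of the kidney's mercapturate pathway or similar to them. Nat8b read 11.30, 11.48 and 11.34 in vehicle and 8.94, 9.11 and 10.40 in CMS50 kidneys, lower on every array and least so in replicate 3. It fell by 1.89 ± 0.34 (adjusted p = 0.00652) and Nat8f5 by 1.35 ± 0.27. The Nat count was 3 without vehicle replicate 2 or CMS50 replicate 1 or 2. Members of the Nat8 group are near copies of each other, so which one a probe set reads is uncertain.

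Transport lists were mixed. Cubn, the endocytic receptor cubilin, rose by 0.90 ± 0.16 among 6 rises and 0 falls in 22 endocytosis genes. That count was 3, 1 and 3 without vehicle replicates 1 to 3, 1 without CMS50 replicate 1 or 2 and 3 without CMS50 replicate 3. In zinc, copper and manganese transport 6 of 21 rose and 2 fell (28.6% and 9.52%, against 13.1% and 7.15% of all genes). These included opposite changes within the Slc39 zinc importers. Slc39a14 rose by 1.04 ± 0.16 and Slc39a6 by 0.91 ± 0.12, while Slc39a8 read 10.12, 10.35 and 10.07 in vehicle and 7.68, 7.77 and 9.04 in CMS50 kidneys and fell by 2.02 ± 0.32. Slc31a2, a copper carrier, rose by 1.28 ± 0.21. Among potassium, chloride and calcium channels 4 of 25 rose and 3 fell (16% and 12%, against 13.1% and 7.15% of all genes). Kcnj1, the potassium channel ROMK of the thick ascending limb and collecting duct, fell by 1.59 ± 0.22 and Clic1, a chloride intracellular channel protein, rose by 0.92 ± 0.14. Of the V-type ATPase 3 of 18 genes fell and 0 rose, with Atp6v1a at -0.63 ± 0.12. The channel falls numbered 1 without vehicle replicate 2 or 3 or CMS50 replicate 1 or 2, and the ATPase falls 1 without vehicle replicate 1 or 3 or CMS50 replicate 1 or 2.

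Lipid, hormone and prostanoid genes moved in both directions. In lipid storage and lipoproteins 6 of 26 rose and 4 fell (23.1% and 15.4%, against 13.1% and 7.15% of all genes, median -0.23). Apoe, apolipoprotein E, rose by 1.98 ± 0.36 and Abca1, the cholesterol exporter, by 1.85 ± 0.32. In steroid and hormone response 1 of 17 rose and 5 fell, and Ghr, the growth hormone receptor, fell by 1.44 ± 0.17. In prostaglandin and leukotriene genes 5 of 24 rose and 1 fell. The fall was Ptgs2, cyclo-oxygenase 2, which read 5.79, 4.55 and 5.30 in vehicle and 3.09, 3.29 and 3.63 in CMS50 kidneys, lower on every array, with a change of -1.88 ± 0.26 (adjusted p = 0.00246). Me1, malic enzyme, fell by 1.76 ± 0.30. Its list, the pentose phosphate pathway and NADPH supply, had 1 rise and 2 falls in 12 genes (8.33% and 16.7%). In aldehyde, alcohol and aldo-keto enzymes 1 of 26 rose, which was Akr1b8, and 4 fell, with Akr7a3 at -1.62 ± 0.23 and Aldh9a1 at -0.74 ± 0.12. Of 22 sphingolipid and phospholipid genes 1 rose, Lpcat1 at 1.28 ± 0.17, and 1 fell (4.55% each, below the shares of all genes).

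Several of these counts changed with 1 array. Lipid rises numbered 2, 2 and 3 without vehicle replicates 1 to 3 and 2 without CMS50 replicate 1 or 2, and lipid falls 0 and 1 without vehicle replicates 2 and 3 and 0 and 1 without CMS50 replicates 1 and 2. Hormone falls numbered 3 without any vehicle array or CMS50 replicate 1 or 2, and the rise was lost without vehicle replicate 1 or 2 or any CMS50 array. Prostanoid rises numbered 1, 3 and 3 without vehicle replicates 1 to 3 and 2 without CMS50 replicate 1 or 2, and 2 falls were called without CMS25 replicate 1 or 2. In the pentose phosphate list 0 rises and 1 fall were called without any vehicle array or CMS50 replicate 1 or 2, and 3 rises without CMS25 replicate 3. Aldehyde falls numbered 2 without vehicle replicate 2 or 3, and rises 3, 2 and 2 without CMS25 replicates 1 to 3 and 4 without CMS50 replicate 3. In the sphingolipid list 3 rises were called without CMS25 replicate 1 or CMS50 replicate 3 and 2 without CMS25 replicate 2, where 2 falls were called, and 0 falls without any vehicle array or CMS50 replicate 1 or 2.

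Signalling lists held strong changes in single genes. Of 28 genes of TGF-beta and BMP signalling 7 rose and 4 fell (25% and 14.3%, against 13.1% and 7.15% of all genes). The ligand gene Tgfb2 read 5.83, 6.07 and 5.90 in vehicle and 9.14, 8.53 and 7.35 in CMS50 kidneys, higher on every array, and rose by 2.40 ± 0.46 (adjusted p = 0.00803). Gdf15, a stress-induced ligand, rose by 1.55 ± 0.22 and Inhbb, the activin beta B chain, by 1.12 ± 0.10. Among YAP and TEAD target genes 4 of 21 rose and 3 fell (19% and 14.3%). Ccn1, a matrix-associated signalling protein, rose by 1.89 ± 0.23 and Axl, a receptor tyrosine kinase, by 1.65 ± 0.22, whereas Cavin2, of caveolae, fell by 1.23 ± 0.15. Of 23 ErbB ligand and MAPK feedback genes 5 rose and 1 fell, with the receptor gene Erbb2 at 0.83 ± 0.14 and the transcription factor gene Etv5 at -1.45 ± 0.26. In Wnt signalling 3 of 24 rose, with the secreted protein gene Dkk3 at 1.05 ± 0.16, the transcription factor gene Tcf7 at 0.92 ± 0.17 and the receptor gene Fzd1 at 0.71 ± 0.12, and 2 fell. In Notch signalling 2 of 20 rose and 0 fell. Among kidney development regulators 3 of 20 rose and 2 fell. The shares of rises in the Wnt, Notch and development lists, 12.5%, 10% and 15%, were near the 13.1% of all genes, so they are no result about these lists. The shares of falls in the Wnt and development lists, 8.33% and 10%, were near the 7.15% of all genes as well. Sox4 and Pax8 rose by 1.15 ± 0.20 and 0.76 ± 0.15, and Wt1, a transcription factor of podocytes, and Lhx1 fell by 1.36 ± 0.22 and 0.96 ± 0.18.

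Of these signalling counts, the TGF-beta falls numbered 2 without any vehicle array or CMS50 replicate 2 and 1 without CMS50 replicate 1. ErbB rises numbered 3, 3 and 2 without vehicle replicates 1 to 3, 3 without CMS25 replicate 2 and 2 without CMS50 replicate 1 or 2. YAP rises numbered 7 and developmental falls 4 without CMS50 replicate 3. Wnt falls numbered 1 without vehicle replicate 1 and 0 without vehicle replicate 2 or 3 or CMS50 replicate 1 or 2. Notch rises numbered 0 without vehicle replicate 1 or 3 or CMS50 replicate 1 or 2 and 1 without vehicle replicate 2, CMS25 replicate 1 or 2 or CMS50 replicate 3.

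Genes of cell death can be set against the 13.1% of all genes that rose and the 7.15% that fell. Of 9 Casp genes 5 rose and 0 fell, with Casp8, the initiator caspase of death receptors, at 1.10 ± 0.15 and Casp12, a caspase of the inflammatory group, at 1.00 ± 0.12. The count was 3 without vehicle replicate 2 or 3 or CMS50 replicate 1. In the BCL2 family 4 of 17 rose and 1 fell. The rises were Bcl2a1, which opposes apoptosis, at 1.35 ± 0.20 and the pro-apoptotic Bcl2l11 at 0.89 ± 0.16, Bbc3 at 0.83 ± 0.16 and Bak1 at 0.78 ± 0.09. Ubiquitin E1 and E2 enzymes were called in 2 of 23 (8.7%), both rises, a share below that of all genes, and 1 of them was Ube2c. Without vehicle replicate 1 or 2, CMS25 replicate 3 or CMS50 replicate 1 or 2, 1 was called.

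Some cell machinery showed few calls or none. Coat and Rab vesicle traffic genes had 0 calls among 23 by limma, with 9 at an unadjusted p under 0.05. Under other settings 1 or 2 of them were called, namely without vehicle replicate 3, CMS25 replicate 3 or CMS50 replicate 3 and under either other scaling. In ER entry and glycosylation 3 of 25 rose, with Sec11a, of signal peptidase, at 0.87 ± 0.15, and 4 fell. The share of rises, 12%, was near the 13.1% of all genes, and that of falls was 16%, against 7.15%. Mitochondrial import and chaperone genes rose in 1 and fell in 2 of 22 (4.55% and 9.09%). For ER genes 1 rise was called without any vehicle array or CMS50 replicate 1 or 2, and 1 fall without vehicle replicate 1 and 0 without the others of these. For import genes 0 rises were called without vehicle replicate 2 or CMS50 replicate 1 or 2, and 0 falls without vehicle replicate 1 or 2 or CMS50 replicate 1 or 2 and 1 without vehicle replicate 3.

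Probe sets of 1 gene mostly moved together. Of 925 called genes with another probe set, 1038 of 1350 further probe sets had a change in the same direction, and of 355 that were called themselves, 345 moved the same way and 10 the opposite way. Called probe sets pointed both ways in 9 genes. In Ptprs, a receptor tyrosine phosphatase, the brightest probe set rose by 1.26 ± 0.23 and another fell by 0.59 ± 0.16. In Mbnl1, a splicing regulator, the brightest rose by 0.54 ± 0.11 and another fell by 0.66 ± 0.19. In Tor1aip2 the brightest fell by 0.43 ± 0.09 while another rose by 0.69 ± 0.12. In Cdkn2c, a cyclin-dependent kinase inhibitor, the brightest rose by 0.58 ± 0.12 while another fell by 0.52 ± 0.12. In Ezh2, counted among the chromatin rises, the brightest rose by 0.84 ± 0.19 while another fell by 0.43 ± 0.12. In these genes the direction given depends on the probe set.

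At the lower dose the same genes were not called. The comparison of CMS25 with vehicle called 0 of 14217 genes (0.0%) by limma, with 856 at an unadjusted p under 0.05, and it shares the vehicle arrays with the comparison above. For the 20 largest rises without overlap the CMS25 change ranged from -0.68 to 1.86 with a median of -0.02, and for the 20 largest falls without overlap from -1.2 to 0.30 with a median of -0.30. The 2 doses themselves differed in 2801 genes (19.7%). Of these 20 rises, chosen for arrays that do not overlap, 20 differed between CMS50 and CMS25, by 2.42 to 7.0 log2 units, and of the 20 falls 18 did. These genes were chosen for large changes on the same CMS50 arrays. That choice favours a difference between the doses, so the counts are a description and no separate evidence. Coch and Gp2 were the exceptions, at -1.97 (adjusted p = 0.0501) and -2.45 (adjusted p = 0.0661).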

How the data were processed

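Total RNA from the right kidney of 9 rats was hybridised to 1 expression array each, and the labels call the arrays of a group biological replicates. The values analysed are the log2 intensities deposited by the authors, made with RMA in Affymetrix Expression Console per the submitters' processing notes, whose version is not given in the sources here. RMA equalises the arrays, so a shift shared by all genes cannot be seen. No batch was given. Probe sets were named through the platform annotation, which pairs 20826 with 1 gene, 436 with several and 9780 with none. The 57 control probe sets were left out of the tests.

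limma 3.58.1 in R 4.3.3 (lmFit, eBayes) was fitted to all 9 arrays in 3 groups, with Benjamini-Hochberg adjustment over 31042 probe sets and no minimum intensity. The fit was tested on simulated data. Python 3.11.15, pandas 2.3.3, scipy 1.17.1 and matplotlib 3.10.9 made the summaries. Symbol families are genes whose symbols share the letters before the first digit (for Slc, the letters and the first number), with at least 8 genes. Promoter sequences are RefSeq's, on GRCr8.

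Genes named were drawn from the 20 largest non-overlapping rises and falls and the 10 highest and 10 lowest moderated t. They were also drawn from up to 4 called members with the largest change and 1 uncalled member of each list, and up to 4 of each described family. The 10 called genes most variable over CMS50 arrays and genes with probe sets called both ways were the other sources. Not every gene so selected is named, so a gene named for a list or family need not be its largest change. The comparison, members and lists were chosen with earlier results of these data known. Alternatives covered scaling, minimum intensity, the features adjusted over, the probe set read, the variance model, array weights, the samples fitted, the replicate number as a block and leaving out each array. The result of 1 gene list is not reported here.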

Additional observations from a re-analysis of the deposited data

Results flagged for a closer look

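Probe sets to which the annotation gives no gene were outside the comparison and carried the same contrast. Of 9780 such probe sets, 456 were called higher and 426 lower in CMS50 than in vehicle kidneys by limma with Benjamini-Hochberg adjustment. They are unnamed here and were not followed further.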

How the results depend on the processing

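Leaving out each array in turn gave 1365 to 3286 called genes, 1756 to 4168 called probe sets, 532 to 1098 called probe sets with a change of at least 2-fold, a share of rises among called genes of 61.8% to 71.4%, and 31 to 40 of the 40 largest non-overlapping changes called between the doses. The share of rises, 64.6%, was 60.4% with the mean of a gene's probe sets, 59.3% after median centring, 61.1% with a minimum mean value of 6, and 60.8% with only CMS50 and vehicle arrays and CMS50 replicate 3 left out, a setting chosen after seeing the data. Other settings kept counts of called genes between 2573 and 3532. With the mean of a gene's probe sets, Mbnl1 read -0.044 and Tor1aip2 0.094, both reversed, and 18 other named genes lost their call. Losses numbered 5 with cyclic loess, 7 with median centring, 16 with only the CMS50 and vehicle arrays and 23 with trend and robust variance, of 280 named genes. The causes were not tested.

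With the replicate number as a block, 2573 genes were called and 22 named genes lost their call. Same-numbered arrays of different groups had deviations correlated from -0.197 to 0.213, and differently numbered arrays from -0.196 to 0.22. These correlations gave no sign of pairing by number. Deviations from means of 3 arrays cannot exclude it.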
